A study of Condylura cristata and Mus musculus with 12 samples.

Results

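The nuclear genes of oxidative phosphorylation were taken as every row of the deposited count tables whose symbol names a numbered Ndufa, Ndufb, Ndufc, Ndufs or Ndufv gene, an Sdh gene, a Uqcr gene, a Cox4 to Cox8 gene without a further suffix, or an Atp5 gene. The rule found 84 of 33773 rows in the star-nosed mole table and 80 of 26125 rows in the mouse table, and 80 symbols stood in both. The 4 rows found only in the mole were Ndufb1, Atp5l2, Atp5ep2 and Atp5j2-ptcd1. The last 3 are human copies or readthrough rows that can share reads with Atp5l, Atp5e and Atp5j2, so their counts are uncertain. Atp5s and Atp5sl carry the Atp5 name but are not subunits of the enzyme, and they were kept apart.

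RNA of the trigeminal ganglia (TG), which hold the sensory neurons of the face and, in the mole, of the nasal star, was compared with RNA of the dorsal root ganglia (DRG), which hold those of the body. The mole libraries came from wild adult males, with 3 libraries per ganglion, and 1 mole DRG sample combined 2 animals. The mouse libraries came from adult C57BL/6 females, with 2 libraries per ganglion used here. For replicate 1 of both mole ganglia the kit was the Genomic Sample Prep kit and the sequencer a Genome Analyzer II, while the TruSeq kit and a HiSeq served for the others.

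The respiratory chain of mitochondria passes electrons from NADH through complex I, or from succinate through complex II, to ubiquinone, then through complex III and cytochrome c to complex IV, which reduces oxygen. Complexes I, III and IV move protons across the inner membrane, and complex V, the ATP synthase, uses their return to make ATP. Neurons rely on this pathway for ion pumping. A few of the proteins are encoded inside the mitochondrion and were not analysed here, and nuclear genes encode the rest.

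Total counts ranged from 8409670 to 92323879 in the mole libraries and from 90548941 to 147076817 in the mouse libraries. Mole TG 1 and mole DRG 2 stood apart from the other libraries of their ganglion: over all genes the SD of the log2 ratio of TG 1 to TG 2 was 1.53 and of DRG 2 to DRG 3 was 1.54, against 0.608 for TG 2 to TG 3 and 0.904 for DRG 1 to DRG 3. The values that change without them are given with the results. Hox genes, which are used along the body but hardly in the head, went with the labels in the mole, where 39 of them summed to 66.7 to 109 CPM (counts scaled to a common library total with TMM factors) in the TG and 374 to 409 CPM in the DRG. In the mouse they went against the labels, with 238 to 263 CPM in the libraries labelled TG and 59.7 to 87.8 CPM in those labelled DRG. Of 33 tested Hox genes, 25 passed the test toward the labelled TG and 0 toward the labelled DRG, with 4 estimates toward the DRG. The muscle markers given below ran toward the TG in both species as labelled. Mouse groups are therefore called by their labels throughout. Some marker lists also moved with the ganglion. Myelin and Schwann cell genes summed to 10710 to 12090 CPM in the mole TG and 1944 to 3746 CPM in the mole DRG, and to 4318 to 4385 and 10830 to 14220 CPM in mouse libraries labelled TG and DRG, with no gene of the list at 0 in every library. Central nervous system genes summed to 291 to 810 CPM in the mole TG and 61.2 to 102 CPM in the DRG, and to 48.7 to 59.1 and 278 to 292 CPM in the mouse groups, with 7 of 10 called toward the mole TG, 1 toward its DRG and 5 toward the labelled mouse DRG. Satellite glia genes summed to 7128 to 8059 CPM in the mole TG and 2362 to 2784 CPM in the DRG. Most of this was Apoe, with 6695 to 7766 CPM in the TG and 1793 to 2187 CPM in the DRG. Of the 7 genes 1 was called in each direction, and their median log2 fold change (TG over DRG) was -0.459. Surface epithelium genes summed to 1296 CPM in TG 1 of the mole, against 38.3 to 40.9 CPM for TG 2 and 3. Sums of neuron, blood and fat genes overlapped between the mole ganglia. Of 15 neuron genes, however, 0 were called toward the mole TG and 5 toward its DRG (all genes 10.5% and 12.9%). Their median log2 fold change was -0.558. The part of these cell types in the members' values was not tested. In whole ganglia, fewer cells of a type and less RNA per cell cannot be told apart.

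The c ring of complex V, the rotor that turns as protons pass, is encoded by Atp5g1, Atp5g2 and Atp5g3, and its sequences are shown because results below turn on how counts divide among these genes. The last 228 coding bases of each mouse gene are given here, read 5′ to 3′ from GENCODE M21 on GRCm38, with the 58 positions that are not alike in all 3 genes in capitals. Atp5g1 lies at chr11:96068852-96075670, Atp5g2 at chr15:102662864-102672352 and Atp5g3 at chr2:73908447-73911326, all on the minus strand.
Atp5g1: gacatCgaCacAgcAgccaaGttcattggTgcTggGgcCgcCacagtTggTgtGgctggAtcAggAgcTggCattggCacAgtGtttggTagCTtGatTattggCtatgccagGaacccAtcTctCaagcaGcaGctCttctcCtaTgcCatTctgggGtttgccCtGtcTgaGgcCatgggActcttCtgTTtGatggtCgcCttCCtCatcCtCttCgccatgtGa
Atp5g2: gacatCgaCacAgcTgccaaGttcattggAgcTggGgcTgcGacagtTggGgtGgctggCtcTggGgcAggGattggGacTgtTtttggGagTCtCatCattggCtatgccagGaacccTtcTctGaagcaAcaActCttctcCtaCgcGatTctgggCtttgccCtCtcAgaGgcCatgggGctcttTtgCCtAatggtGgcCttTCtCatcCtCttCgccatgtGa
Atp5g3: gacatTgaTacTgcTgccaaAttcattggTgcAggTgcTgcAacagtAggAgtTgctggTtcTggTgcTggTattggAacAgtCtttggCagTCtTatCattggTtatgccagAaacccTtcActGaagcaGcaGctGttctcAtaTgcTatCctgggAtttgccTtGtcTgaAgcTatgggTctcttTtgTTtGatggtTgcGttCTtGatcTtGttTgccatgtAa
All 76 codons of this stretch, the stop codon included, have the same meaning in the 3 genes. The bases of Atp5g1 were 85.1% identical to those of Atp5g2 and 79.8% to those of Atp5g3, and Atp5g2 and Atp5g3 were 78.5% identical. The longest runs they shared were 21, 11 and 8 bases in the same order.

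Across all members, the summed level took up a similar part of the counts in both mole ganglia, with 1.47 to 1.73% of counts in the TG and 1.29 to 1.85% in the DRG. The ranges overlapped. In the mouse the members took 0.57 to 0.642% of counts in libraries labelled TG and 0.58 to 0.813% in those labelled DRG, which overlapped as well. The species differ in the transcripts that reads were aligned to and in sex, and in part in kit and depth. A difference in level between them therefore cannot be told apart from these.

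In the mouse, levels could be compared between genes per kilobase of transcript. The beta and alpha subunits of the catalytic head of complex V stood highest, Atp5b with a mean of 514 CPM per kb (474 to 598 over the 4 libraries) and Atp5a1 with 291 CPM per kb (283 to 296). Their ranges did not overlap. Next came Ndufa4, a small subunit now placed in complex IV, with 237 CPM per kb (152 to 342), Cox6a1 with 218 CPM per kb (113 to 433) and Atp5g3 with 217 CPM per kb (160 to 337), and these 3 overlapped each other and Atp5a1. By complex, the median over tested members was 122 CPM per kb for complex V, 73.9 for complex III, 70.4 for complex II, 67.0 for complex IV and 53.3 for complex I. The lowest of the tested subunits were isoforms known from muscle or testis, with 4.27 CPM per kb for Cox6b2, 1.57 for Cox7a1, 0.309 for Cox7b2 and 0.288 for Cox6a2.

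Of the 84 mole members, 82 passed the filter on low counts and were tested with edgeR. Cox8b and Cox8c, the muscle and testis isoforms of a small complex IV subunit, did not pass in either species. In the mole, the TG was higher for 9 members and the DRG for 4 at an adjusted p under 0.05. Those are 11% and 4.88% of members tested, beside 10.5% and 12.9% of all genes tested. The median log2 fold change (TG over DRG) of members was 0.038, beside 0.115 for all genes. All 3 TG libraries lay above all 3 DRG libraries for 18 members (22.0%, against 21.7% of all genes), and the reverse held for 11 (13.4%, against 22.4%). The counts changed when single libraries were left out and with offsets for GC content. Without TG 1 the test called 8 toward the TG and 17 toward the DRG. Without TG 2, DRG 1 or DRG 3 it called none in either direction, without TG 3 it called 1 and 0, and without DRG 2 it called 22 and 5. With offsets for GC content 1 member was called higher in the TG, Sdha, and 0 in the DRG. The share of all genes called in each of these fits is not given here, so these counts cannot be set beside it.

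**Figure D1:**
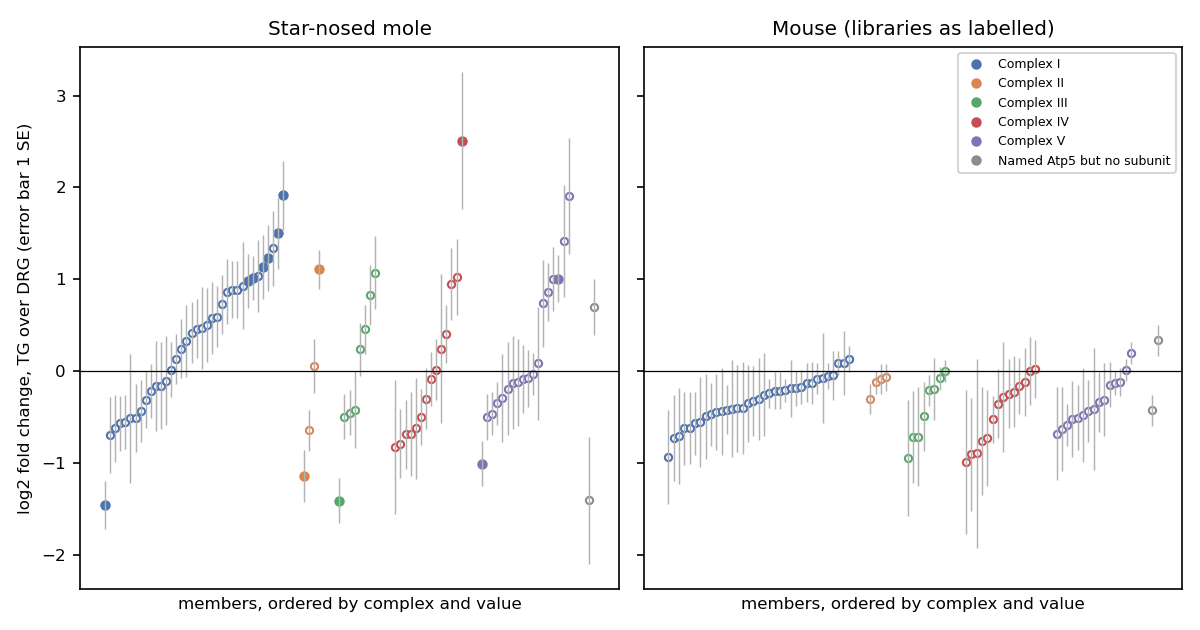
Log2 fold change of TG over DRG for each tested member in the mole (left) and the mouse (right), ordered by complex. Points are edgeR estimates, error bars are 1 SE and filled points passed an adjusted p of 0.05; the mole has 13 filled points from -1.46 to 2.51 and the mouse has none.

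Complex I, the entry point for NADH, held 6 of the 9 members higher in the mole TG and 1 of the 4 higher in the DRG, among 36 tested. Those are 16.7% and 2.78% of its members, beside 10.5% and 12.9% of all genes. Its median log2 fold change was 0.44. Ndufs6, a zinc-binding accessory subunit, had 112, 78.4 and 73.4 CPM in TG 1, 2 and 3 and 14.2, 33.1 and 22.6 CPM in DRG 1, 2 and 3. The ganglia did not overlap, and the log2 fold change was 1.92 ± 0.37 (SE) with an adjusted p of 0.015. Ndufs8, a core subunit that carries iron-sulfur clusters, had 252, 381 and 315 CPM in the TG and 76.9, 178 and 80.3 CPM in the DRG (log2 fold change 1.5 ± 0.39, adjusted p = 0.0313). DRG 2 lay closest to the TG for both genes.

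The other complex I members higher in the mole TG had smaller changes. Ndufv1, the core flavoprotein that takes electrons from NADH and the member of complex I with most counts in the mole, had 517, 717 and 598 CPM in the TG and 210, 420 and 204 CPM in the DRG (log2 fold change 1.14 ± 0.35, adjusted p = 0.0491). The accessory subunits Ndufa11 (1.23 ± 0.36, adjusted p = 0.0444), Ndufa10 (1.01 ± 0.24, adjusted p = 0.0239) and Ndufb10 (0.98 ± 0.30, adjusted p = 0.0482) completed the group, as log2 fold changes. In each of these the 3 TG libraries lay above the 3 DRG libraries.

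Ndufs1, the largest core subunit of complex I, went the other way. It had 79.2, 94.7 and 94.6 CPM in the mole TG and 286, 186 and 266 CPM in the DRG, without overlap (log2 fold change -1.46 ± 0.26, adjusted p = 0.0129). Other core subunits did not pass the test. Ndufs7 had a log2 fold change of 1.34 ± 0.41 (adjusted p = 0.0512), Ndufs3 of 0.018 ± 0.30 and Ndufv2 of -0.55 ± 0.29. Subunits that sit in the same arm of one complex thus had estimates of both signs.

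Complex II, which oxidises succinate and is also an enzyme of the citric acid cycle, had 4 members. Sdha, its flavoprotein, had 482, 500 and 462 CPM in the mole TG and 214, 234 and 221 CPM in the DRG, so the libraries of a ganglion lay close together (log2 fold change 1.11 ± 0.21, adjusted p = 0.0149). Sdhd, a membrane anchor, had 32.4, 42.4 and 49.9 CPM in the TG and 89.0, 75.4 and 110 CPM in the DRG (log2 fold change -1.14 ± 0.28, adjusted p = 0.0283). The other anchor, Sdhc, was below the DRG range in all 3 TG libraries but missed the threshold (-0.64 ± 0.22, adjusted p = 0.072), and the iron-sulfur subunit Sdhb had a log2 fold change of 0.058 ± 0.29.

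In complex III, which passes electrons from ubiquinol to cytochrome c, 1 of 8 members was called in the mole. That is 0% toward the TG and 12.5% toward the DRG, beside 10.5% and 12.9% of all genes. Uqcrc2, a core protein, had 130, 97.0 and 96.6 CPM in the TG and 298, 248 and 312 CPM in the DRG (log2 fold change -1.41 ± 0.25, adjusted p = 0.0123). Its partner Uqcrc1, the complex III member with most counts, had a log2 fold change of 0.46 ± 0.27 (adjusted p = 0.244), and its ganglia overlapped. The Rieske iron-sulfur protein Uqcrfs1 had -0.49 ± 0.24 (adjusted p = 0.17).

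In complex V, 2 of 18 tested members were called in the mole, both of the central stalk. That is 5.56% toward the TG and 5.56% toward the DRG, beside 10.5% and 12.9% of all genes. Atp5d, the delta subunit, had 513, 442 and 342 CPM in the TG and 220, 239 and 187 CPM in the DRG (log2 fold change 1.01 ± 0.26, adjusted p = 0.0297), and its estimate turned to -0.07 with offsets for GC content. Atp5c1, the gamma subunit, had 165, 123 and 116 CPM in the TG and 254, 285 and 274 CPM in the DRG (log2 fold change -1.01 ± 0.24, adjusted p = 0.026). Atp5b and Atp5a1, the beta and alpha subunits of the catalytic head, had the highest mean CPM of all members in both mole ganglia. Atp5b had 1092, 1282 and 1299 CPM in the TG and 1927, 1611 and 1522 CPM in the DRG. Atp5a1 had 817, 841 and 776 CPM in the TG and 1416, 949 and 1072 CPM in the DRG. Both were without overlap but missed the threshold, with log2 fold changes of -0.46 ± 0.23 (adjusted p = 0.179) and -0.50 ± 0.25 (adjusted p = 0.173).

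**Figure D2:**
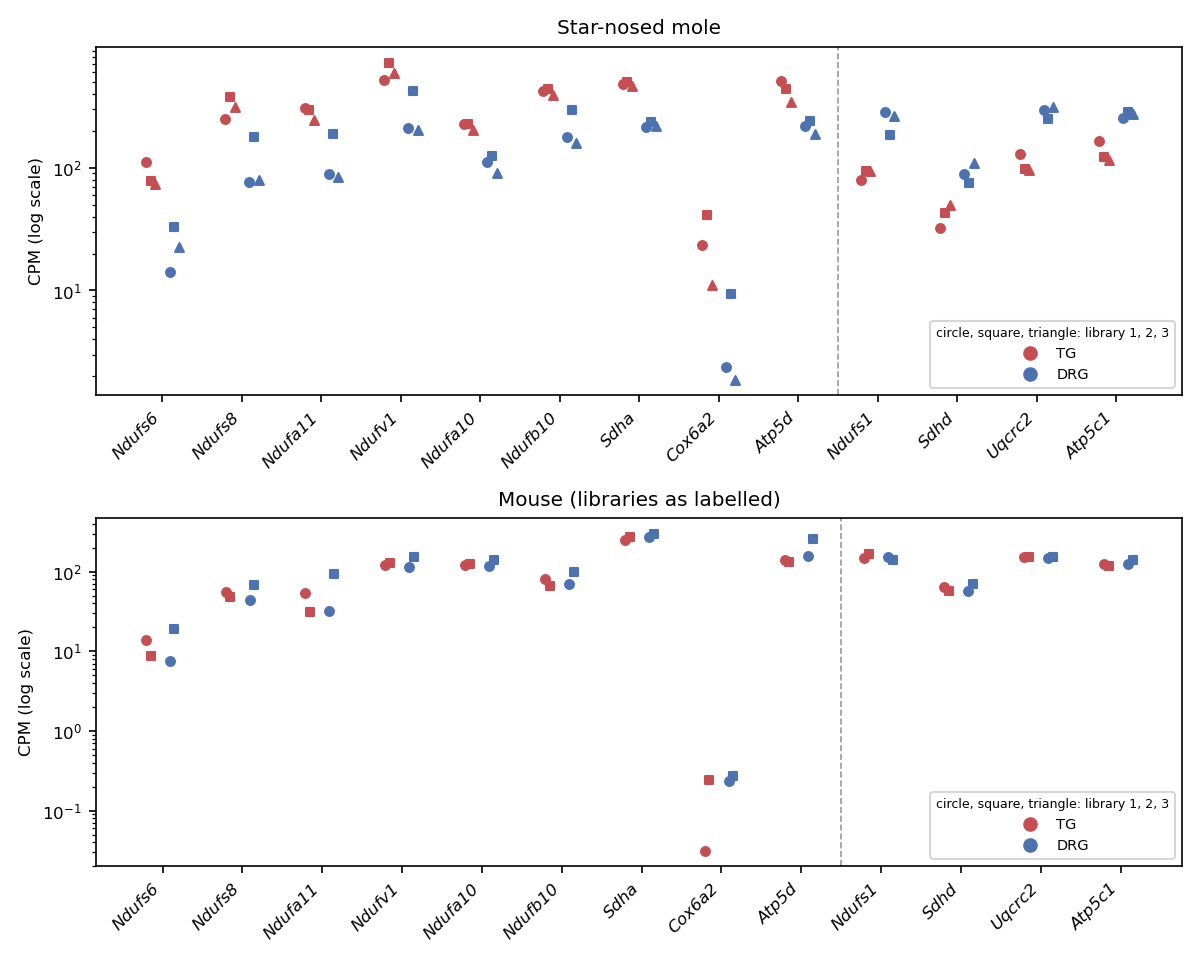
CPM on a log scale in every library for the 13 members called in the mole, with TG libraries in red and DRG libraries in blue, mole above and mouse below. To the left of the dashed line are the 9 members higher in the mole TG and to its right the 4 higher in the mole DRG; the mole ganglia do not overlap for any of them.

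The direction of these changes in the mole went with base composition. The mole has no sequence here, so the GC content of the mouse transcript of the same symbol stood in for it, for 77 members. Across them the rank correlation of the log2 fold change with GC content was 0.701, and across 13665 genes it was 0.567, given as a description of points that share the same 6 libraries. In the third of members with least GC (36.7 to 49.9%) the median log2 fold change was -0.50 and the test called 1 toward the TG and 4 toward the DRG. In the third with most GC (54.6 to 61.1%) the median was 0.88 and the test called 6 and 0. With GC offsets the log2 fold changes were 1.56 for Sdha, 2.24 for Cox6a2, 1.35 for Ndufs6, 0.85 for Ndufa10, 0.63 for Ndufs8, 0.40 for Ndufb10, 0.39 for Ndufv1 and 0.38 for Ndufa11. Those toward the DRG were -0.79 for Sdhd, -0.72 for Ndufs1, -0.48 for Uqcrc2 and -0.48 for Atp5c1. Of these, Sdha passed the test. How far base composition produced the calls was not tested beyond the offsets given above.

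**Figure D3:**
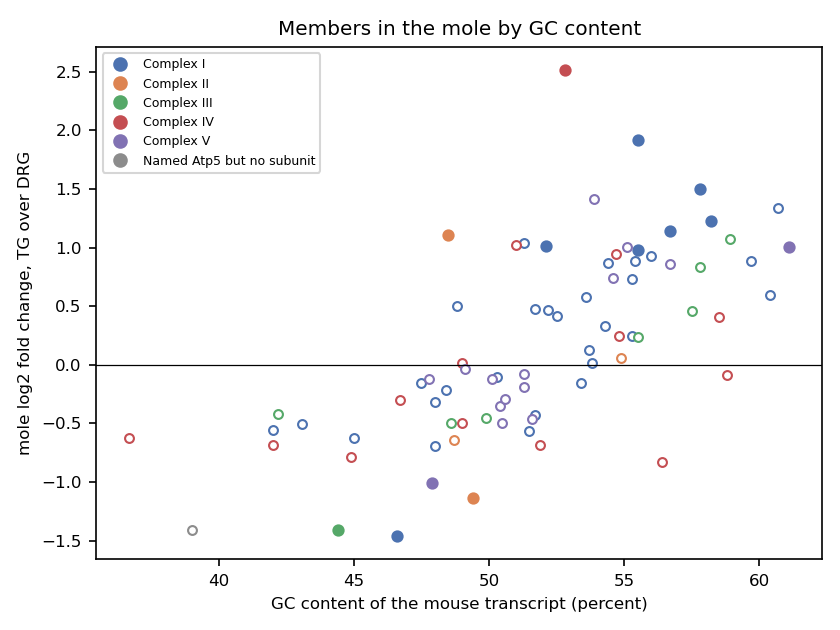
Mole log2 fold change (TG over DRG) against the GC content of the mouse transcript for the 77 members with one, coloured by complex, with filled points for members past an adjusted p of 0.05. Values run from below 0 at low GC content to above 0 at high GC content; Sdha is the filled point above 0 at 48.5% GC.

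Complex IV, which reduces oxygen, has subunits with separate isoforms for most tissues, for heart and skeletal muscle, and for testis. Of its 14 tested members 1 was called in the mole (7.14% toward the TG and 0% toward the DRG, beside 10.5% and 12.9% of all genes). This was the muscle isoform Cox6a2, with 23.4, 41.4 and 11.1 CPM in the TG and 2.37, 9.27 and 1.88 CPM in the DRG (log2 fold change 2.51 ± 0.75, adjusted p = 0.0468). Its widely expressed counterpart Cox6a1 had 470, 298 and 258 CPM in the TG and 335, 423 and 331 CPM in the DRG, which overlapped (log2 fold change -0.087 ± 0.29). Cox6a2 was 7.03 ± 4.49% (SD, n = 3) of Cox6a counts in the mole TG and 1.14 ± 0.872% in the DRG. The muscle isoform Cox7a1 was 50.7 to 58.2% of Cox7a counts in the mole TG and 25.4 to 29.4% in the DRG, a difference of 27.1 percentage points. In the mouse it was 1.43 ± 0.638% and 1.65 ± 0.0495% (n = 2) in libraries labelled TG and DRG. Taken singly, the mole genes did not pass, with log2 fold changes of 0.95 ± 0.39 for Cox7a1 (adjusted p = 0.114) and -0.68 ± 0.46 for Cox7a2.

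Markers of skeletal muscle were measured beside these isoforms. Of 20 muscle genes the mole TG was higher for 11 and the DRG for none (all genes 10.5% and 12.9%), and their summed level was 2156, 5062 and 2173 CPM in TG 1, 2 and 3 and 1215, 1516 and 800.1 CPM in DRG 1, 2 and 3. TG 2, with the highest sum, also had the highest Cox6a2, but Cox7a1 was highest in TG 1, with 167, 86.9 and 60.6 CPM in TG 1, 2 and 3. None of the 20 was at 0 in every library. In the mouse 9 of the 20 were higher in libraries labelled TG (all genes 1.12%), at sums of 104 to 126 CPM against 51.1 to 59.7 CPM. There Cox6a2 and Cox7a1 did not pass the test, and their estimates of -0.90 ± 1.03 and -0.29 ± 0.60 on the log2 scale lay toward the labelled DRG. The part of muscle RNA in the isoform shares was not tested.

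The c ring genes also divided differently in the mole ganglia. Atp5g1 was 46.4 ± 1.93% of Atp5g counts in the TG against 32.5 ± 5.38% in the DRG, and Atp5g3 was 23.5 ± 1.33% and 43.9 ± 5.78% (SD, n = 3). In the mouse Atp5g1 was 31.5 ± 0.566% and 31.9 ± 3.04%, and Atp5g3 60.0 ± 1.20% and 59.1 ± 2.33% (n = 2). By gene, the mole log2 fold changes were 1.00 ± 0.35 for Atp5g1 (adjusted p = 0.0728), 0.86 ± 0.32 for Atp5g2 (adjusted p = 0.0831) and -0.35 ± 0.23 for Atp5g3 (adjusted p = 0.303). The mouse transcripts have a GC content of 55.1% for Atp5g1, 56.7% for Atp5g2 and 50.4% for Atp5g3. The part of base composition in these shares was not tested. The mole reads were aligned to human, dog and mouse copies of these related genes, and how reads that match more than 1 of them were counted was not tested.

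Shares of Cox7b2 and Cox6b2 lay further apart between species than between ganglia. Mole reads were aligned to human, dog and mouse transcripts, and mouse reads to mouse transcripts alone. How reads that match more than 1 gene of a pair were counted was not tested. Cox7b2, a testis isoform, was 12% ± 3.28 and 12.8% ± 3.92 of Cox7b counts in the mole TG and DRG, and 0.135 ± 0.0835% and 0.265 ± 0.11% in the mouse. Cox6b2, another testis isoform, was 0.189 ± 0.112% and 0.304 ± 0.113% of Cox6b counts in the mole, and 4.2 ± 0.537% and 5.14 ± 1.8% in the mouse. For 8 such shares the two-sided exact permutation test between mole ganglia gave p = 0.1 for Cox6a2, Cox7a1, Cox8b and the 3 Atp5g genes, the smallest that 3 against 3 libraries can give, and 0.133 after adjustment over the 8. With 2 against 2 mouse libraries the smallest possible p is 0.333. Wilson intervals of the shares cover counting error only. The Cox8b share rests on 1 to 9 Cox8b counts per mole library.

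**Figure D4:**
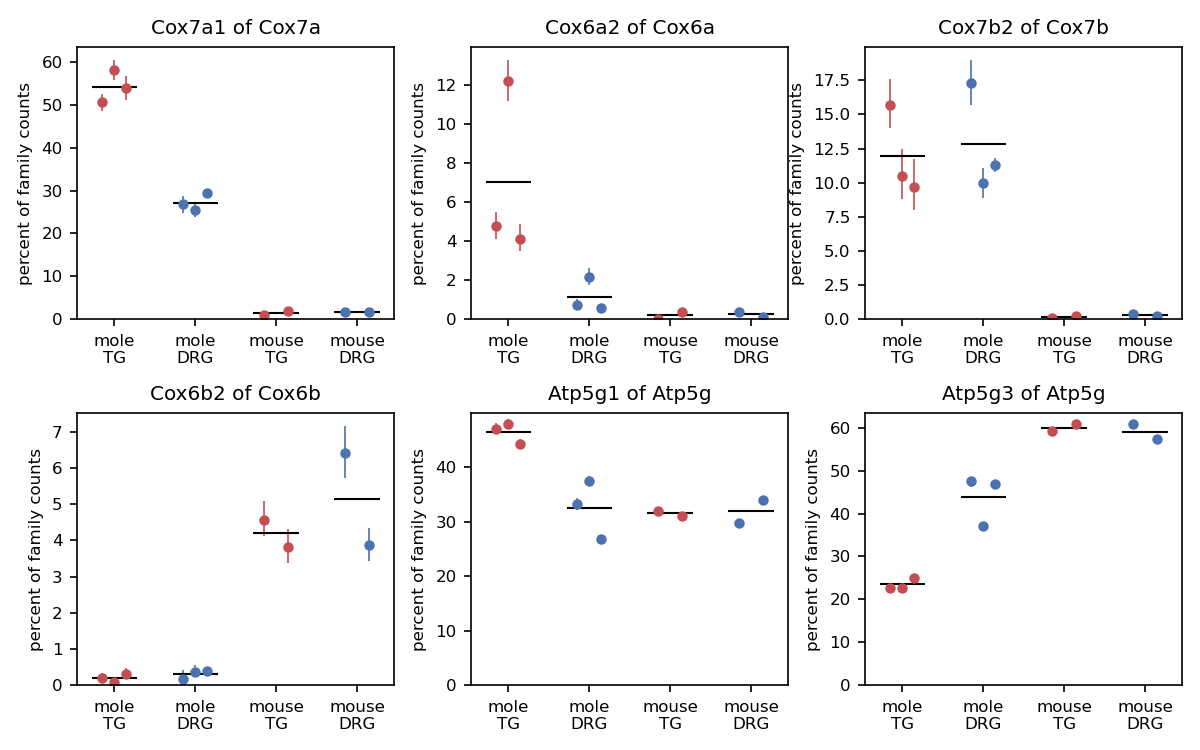
Share of each family's counts taken by 1 gene, in percent, for every library of the 4 groups; points are libraries with 95% Wilson intervals, bars are group means, TG is red and DRG blue. Cox7a1 and Atp5g1 are above, and Atp5g3 below, the DRG in all 3 mole TG libraries, while the mouse groups lie close together.

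In the mouse, 78 of 80 members were tested and edgeR called 0 higher in libraries labelled TG and 0 higher in those labelled DRG, where 1.12% and 1.21% of all genes were called. At an unadjusted p under 0.05 there were 2, DESeq2 and limma-voom also called none, and the median log2 fold change was -0.31, beside -0.016 for all genes. Estimates were below 0 for 69 members and above 0 for 8. The sign rests on 1 library: without DRG 2 the median was 0.27 (all genes 0.001), and without DRG 1 it was -0.74 (all genes 0.028). The labelled groups did not overlap for 2 members above and 8 below (all genes 24.2% and 23.9%). The lack of calls went with a gap between the libraries labelled DRG. DRG 2 was the highest of the 4 libraries for 73 of 78 members (93.6%, against 31.6% of all genes), and DRG 1 was the lowest for 46. The fits without DRG 1 or DRG 2 leave 1 library in a group, which is assumed to vary like the other. Their calls are therefore not given.

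The gap between mouse DRG 1 and DRG 2 was wider for short transcripts. Members are short, with a median of 704 bases in the mouse against 2558 for all genes tested. The median log2 ratio of DRG 1 over DRG 2 was -1.0 over members and 0.041 over all genes. Its rank correlation with transcript length was 0.67 across 77 members and 0.302 across all genes with a length. With GC content the rank correlation was -0.344 across the same members and -0.361 across the same genes. The parts of length and GC content in the gap were not tested. Markers of other cells differed between the same libraries, with sums of 27.2 and 163 CPM for blood in DRG 1 and 2. Satellite glia genes summed to 1408 and 3939 CPM, mostly through Apoe with 475 and 2835 CPM. Fabp7 and Glul were also higher in DRG 2, while Kcnj10, Cdh19, Gja1 and Slc1a3 were lower. Cox8a, of 550 bases, had 51.4 and 24 CPM in libraries labelled TG and 30.0 and 111 CPM in DRG 1 and 2. Uqcrc2, of 1896 bases, had 153, 152, 150 and 154 CPM in the same order. Ndufs1, of 2590 bases, had 147, 165, 154 and 140 CPM. The 4 libraries lay close together for these long members. Whether cell content, RNA quality or library preparation differed between these libraries was not tested.

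**Figure D5:**
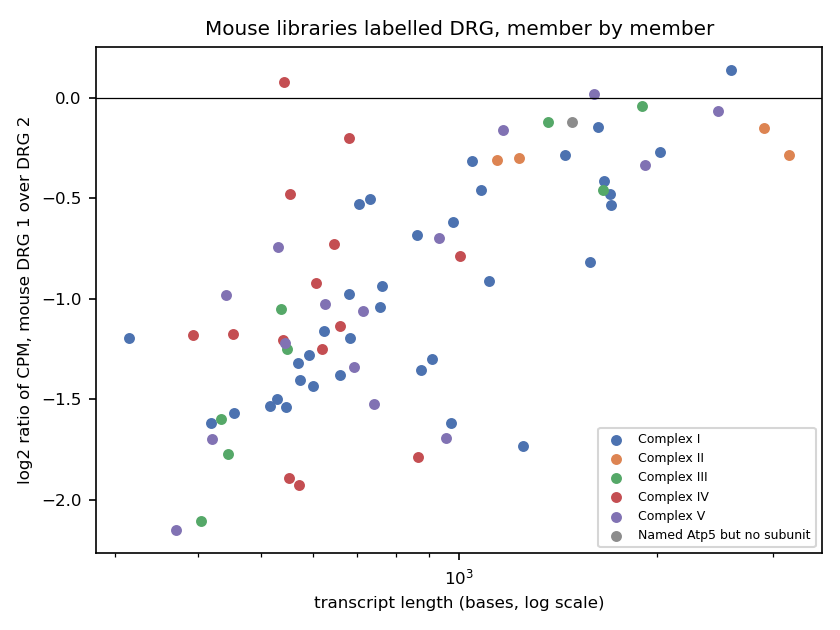
Log2 ratio of CPM in mouse DRG 1 over DRG 2 (with 0.01 CPM added to each) against transcript length on a log scale for the 77 members with a mouse transcript, coloured by complex. The median over members is -1.0, and longer members tend to lie nearer to 0.

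The difference between species was tested as an interaction in 1 fit over symbols in both tables. Of 79 members tested, 0 had a mole change above the mouse change and 4 (5.06%) had one below it, beside 4.39% and 12.6% of all genes. Those 4 were the members higher in the mole DRG. In that joint fit the mole change minus the mouse change, on the log2 scale, was -2.02 ± 0.39 for Ndufs1 (adjusted p = 0.00731), -1.88 ± 0.37 for Uqcrc2 (adjusted p = 0.0081), -1.53 ± 0.40 for Sdhd (adjusted p = 0.0257) and -1.34 ± 0.36 for Atp5c1 (adjusted p = 0.0266). The joint fit scales all 10 libraries together, and the separate fits within species differ by less, by -1.55, -1.41, -1.05 and -0.88 in the same order. In the mouse alone their log2 fold changes lay between -0.13 for Atp5c1 and 0.089 for Ndufs1. With the direction of the mouse contrast turned, an alternative added after seeing the data because of the Hox genes, 0 were above and 5 below, and these 4 kept their direction and stayed past the threshold. Sdhd and Atp5c1 did not pass with RLE factors, upper-quartile factors or GC offsets, while Ndufs1 and Uqcrc2 did. The split between directions changed with the settings. With RLE or upper-quartile factors 3 members passed with a mole change above and 2 with one below. The median over all genes moved from -0.16 to 0.31 and 0.47. Leaving out mouse DRG 2 left no member called, leaving out mole TG 1 gave 0 above and 12 below, mole DRG 2 gave 6 and 5, and leaving out mole TG 2, mole DRG 3 or either mouse library labelled TG gave 2.

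Genes that work beside the complexes were counted from fixed lists. Among 6 further subunits that the symbol rule misses, 2 were higher in the mole TG: Cyc1, cytochrome c1 of complex III (log2 fold change 1.25 ± 0.32, adjusted p = 0.0307), and Cox4i2, a complex IV isoform known from lung (2.18 ± 0.52, adjusted p = 0.0249). For these lists too, 10.5% and 12.9% of all genes were higher in TG and DRG. Of 31 assembly factors the mole TG was higher for 1 and the DRG for 4, the latter a share like that of all genes. Sco2, which delivers copper to complex IV, had 42.2, 28.4 and 22.6 CPM in the TG and 3.89, 6.25 and 4.92 CPM in the DRG (2.63 ± 0.38, adjusted p = 0.00846). Of 21 electron carriers and transporters the TG was higher for 2 and the DRG for 8. All 3 Vdac genes, pores of the outer membrane, were higher in the DRG, with log2 fold changes of -1.37 ± 0.29, -1.30 ± 0.26 and -2.50 ± 0.42 for Vdac1, Vdac2 and Vdac3 (adjusted p of 0.0182, 0.0165 and 0.0114).

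Of 17 citric acid cycle genes the mole TG was higher for 2 and the DRG for 4 (all genes 10.5% and 12.9%). Sucla2, a subunit of the succinyl-CoA synthetase that makes ATP, had 22.6, 30.0 and 36.6 CPM in the TG and 166, 115 and 218 CPM in the DRG (log2 fold change -2.48 ± 0.34, adjusted p = 0.00814). Of 13 regulators the TG was higher for 2 and the DRG for 1. The nuclear receptor Esrra, known to drive genes of oxidative phosphorylation, had 134, 177 and 184 CPM in the TG and 61.4, 54.1 and 45.3 CPM in the DRG (1.62 ± 0.26, adjusted p = 0.0103), and its relative Esrrg went the other way (-2.07 ± 0.42, adjusted p = 0.0165). In the mouse no gene of these 5 lists was called in either direction.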

How the data were processed

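RNA from mole and mouse TG and DRG was sequenced. The authors deposited whole-number read counts per gene, with no normalization. They aligned reads with Stampy, using human transcripts first for the mole, dog ones for what was left and mouse ones last, and summed a gene's counts over its HomoloGene homologs. The labels' processing notes name DESeq. A further mouse sample of each ganglion was not analysed here. Samples were grouped by their labels. Nothing states that replicates share animals across ganglia.

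The tests used edgeR 4.0.16 under R 4.3.3 (filterByExpr with a minimum count of 10, TMM factors, quasi-likelihood test, Benjamini-Hochberg adjustment over all genes tested, threshold 0.05) and differences between species as an interaction. The standard error is the log2 fold change over the square root of F. The test was tried on simulated data. Alternatives used DESeq2 1.42.0, limma 3.58.1, other factors and filters, a replicate block, each library left out, the library kit, and loess offsets (span 0.3) for GC content or length.

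Length and GC content came from GENCODE M21 (GRCm38), from the lower median length of a symbol's principal transcripts. The rule first used took all protein-coding transcripts. It was replaced after its results had been seen, because it picked fragments for long genes, and its values are given in the closing section. The mole genome was not used here.

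The members and lists were chosen with earlier results of these data known. Named were members called (up to 10 per direction and species), the member with most counts per complex, isoform pairs, core subunits, members with an interaction, untested members, and up to 4 genes of other lists. Ndufa4 and the 4 mole rows absent from the mouse table were named after their values were seen. A result for 1 member that the naming rule takes is not reported here.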

Additional observations from a re-analysis of the deposited data

Results flagged for a closer look

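For 4 members the change between ganglia in the mole differed from that in the mouse by the interaction test of edgeR. In the joint fit, which scales both species together, the log2 differences were -2.02 for Ndufs1, -1.88 for Uqcrc2, -1.53 for Sdhd and -1.34 for Atp5c1. The separate fits within species differed by -1.55, -1.41, -1.05 and -0.88. In each of them the 3 mole TG libraries lay below the 3 mole DRG libraries. The mouse groups overlapped for Ndufs1, Uqcrc2 and Sdhd and did not for Atp5c1. With the direction of the mouse contrast turned, all 4 stayed past the threshold. With GC offsets Ndufs1 and Uqcrc2 did and Sdhd and Atp5c1 did not, and none of the 4 did with GC offsets and the replicate block. The part of the mouse labels, against which the Hox genes went, and of base composition was not tested further.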

How the results depend on the processing

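Against 9 members higher in the mole TG, the count was 15 with DESeq2, 20 with limma-voom, 4 with no filter, 5 with length offsets, 1 with GC offsets, 3 with GC offsets and the replicate block, 2 with the TruSeq libraries alone, 26 without mole TG 1 and DRG 2, and 0 at an adjusted p under 0.01. Against 4 higher in the mole DRG it was 17 with length offsets, 0 with GC offsets, with or without the block, 9 with TruSeq libraries alone, 23 without TG 1 and DRG 2, and 0 at 0.01. Leaving out 1 library gave 0 to 22 and 0 to 17 in the mole, and 0 to 3 and 0 to 50 in mouse libraries labelled TG and DRG. With the first transcript rule, chosen before the present one, GC offsets called 2 members toward the mole TG and 3 toward the DRG, length offsets 6 and 5 with a median of -0.087, and the rank correlation of the mole change with GC content was 0.621 (0.446 in place of 0.67 for length between mouse DRG 1 and 2). With that rule the mouse medians per kb were 95.5 for complex II and 59.9 for complex I, which puts complex II above complex III. The mole median moved to -0.47 with length offsets. Only Atp5d changed sign among called members, to -0.07 with GC offsets and -0.13 with GC offsets and the block.

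Against 4 interactions, 0 with the mole change above and 4 below, the count was 12 with DESeq2 (8 above, 4 below), 9 with limma-voom (2, 7), 7 (4, 3) with at least 10 counts in every library, 9 with length offsets (0, 9), 0 with GC offsets and the replicate block, 11 with TruSeq libraries alone (0, 11), 31 without mole TG 1 and DRG 2 (13, 18), 25 with a z test of the separate fits (20, 5) and 2 at 0.01 (0, 2), and 0 to 12 with 1 library left out. Turning the mouse contrast, an alternative added after seeing the data, gave 5 (0, 5). The first transcript rule gave 3 (0, 3) with GC offsets and 4 (0, 4) with length offsets. Correlations of deviations between same-numbered mole libraries were 0.389, 0.498 and -0.175. These cannot tell whether the numbers pair the samples, as their signs differ and replicate 1 of both ganglia shared a kit. With the replicate block the mole counts were 13 and 4, the mouse counts 0 and 0, and the interaction count 4 (1, 3). Same-numbered mouse libraries deviated in opposite directions (-0.111), and a crossed pairing, added after seeing the data, called 0 and 4 members.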
